A study of Homo sapiens with 8 samples.

Results

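The genes described here are 38 genes of ribosome production: MYC, 7 genes of the RNA polymerase I machinery, 10 genes of nucleolar and small nucleolar ribonucleoprotein (snoRNP) proteins, 11 factors of the small ribosomal subunit and 9 of the large one. They were named as a list and found by transcript accession among the 20296 genes that could be named on the array. Each gene was read from its probe with the highest mean signal, and all 38 were well above background on all 8 arrays. The study used MCF10A, an immortalized, non-transformed line of human breast epithelium, in a p53+/+ and a p53−/− form. Cells were exposed to adriamycin (ADR, doxorubicin), a drug that traps topoisomerase II and breaks DNA, at 0.5 μg/ml for 2 h. Total RNA was taken at 12, 24 and 48 h, and at 0 h from cells without ADR. Each of the 8 combinations of genotype and time was hybridized to 1 single-colour Agilent array, so no single time point had a replicate. How many clones the p53−/− line came from is not given in the sources used here.

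Ribosomes are built in the nucleolus. RNA polymerase I copies the ribosomal DNA into a long precursor, snoRNPs guide chemical modification of that RNA, and a large set of assembly factors cut, fold and package it into the small and large subunits. MYC is a transcription factor that, paired with MAX, binds the E-box CACGTG and is known to drive many of these genes in growing cells. Damage to DNA or to the nucleolus is known to lower ribosomal RNA synthesis, and free ribosomal proteins are known to bind MDM2, the main inhibitor of p53.

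A level below is the log2 processed signal of a probe minus that of the array's 75th percentile, and a change is a difference between such levels. A rise or fall means a change of 2-fold or more, which is 1 on the log2 scale. The technical SD of a change, taken from 999 probes printed in 10 spots, was 0.09 for a probe in 1 spot, 0.07 for 2 spots and 0.03 for 10 spots. It covers the error between spots and no error between cultures. Shares of all genes are given over the 15811 genes whose probe was well above background on 1 array or more.

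By markers of cell type the arrays do not fall into groups as their labels put them. By these markers the array labelled p53+/+ 0 h lay nearer to the p53−/− arrays than to treated p53+/+ arrays. Of the basal and general epithelial markers, 6 of 8 and 3 of 4 were higher on every treated p53+/+ array than on any other. Of the fibroblast markers, 4 of 6 were lower on each treated p53+/+ array than on any other. The share of all genes that divided the arrays in this way was not computed. Against treated p53−/− arrays alone, a looser rule, all 3 treated p53+/+ arrays were higher for 24.6% of all genes and lower for 19.9%. The epithelial markers had a summed signal of 70.6 to 101.0 times the 75th percentile on treated p53+/+ arrays, 39.4 to 64.7 on p53−/− arrays and 39.6 on the array labelled p53+/+ 0 h. The fibroblast markers had a summed signal of 4.32 to 5.23, 52.6 to 67.5 and 54.4 in the same order, nearly all of it from DCN (decorin), while COL1A2 was above background on no array. CDH1 (E-cadherin) read -3.13 on the array labelled p53+/+ 0 h, 1.42 to 2.10 on the treated p53+/+ arrays and -3.55 to -0.94 on p53−/− arrays. Of the luminal markers 1 of 4 (GATA3) divided the arrays in this way and PGR was above background on none, and of 3 leukocyte markers none did. The part that these markers have in the results was not tested. Every change from the array labelled p53+/+ 0 h therefore carries this doubt. Counts over the 38 genes, over their groups and over the further lists are therefore given from the p53−/− 0 h array too. For many single genes the change from the 0 h array of their own label alone is printed.

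Most of the 38 genes were lower in p53+/+ cells 12 and 24 h after ADR than on the array labelled p53+/+ 0 h, and much of this difference was gone at 48 h. Their median change at 12, 24 and 48 h was -1.12, -1.07 and -0.52, while the median over all genes was 0.06, -0.04 and 0.16. The number below 0 was 35, 37 and 33 of 38. A fall was seen for 22 of the 38 at 12 h, against 10.8% of all genes. At 24 h it was seen for 25 genes, against 14.3% of all genes. At 48 h it was 5 genes, FBL, DKC1, UTP18, UTP20 and POLR1E, a share near the 12.3% of all genes. Both 12 and 24 h showed a fall for 20 genes, against 8.58% of all genes, and all 3 times for 4 genes, DKC1, UTP18, UTP20 and POLR1E, against 6.39%. Shares are smaller among the 11828 genes that, like all 38, were well above background on all 8 arrays: falls were 8.14% of these at 12 h, 11.9% at 24 h and 10.1% at 48 h.

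In p53−/− cells the same genes stayed near their level at 0 h. The median changes were 0.16, -0.26 and 0.08, and no gene of the 38 fell at any time, although 11.6% of all genes did so at 1 time or more. NOLC1 was the 1 gene that rose at 12 h, against 4.82% of all genes. None rose at 24 h, where 9.65% of all genes did, and NOLC1 again was the 1 gene that rose at 48 h, against 14.9%. Of the genes above background on all arrays 3.26%, 5.79% and 7.67% rose at these times. The range over the 38 genes was -0.51 to 1.0 at 12 h, -0.88 to 0.53 at 24 h and -0.80 to 1.08 at 48 h.

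**Figure D1:**
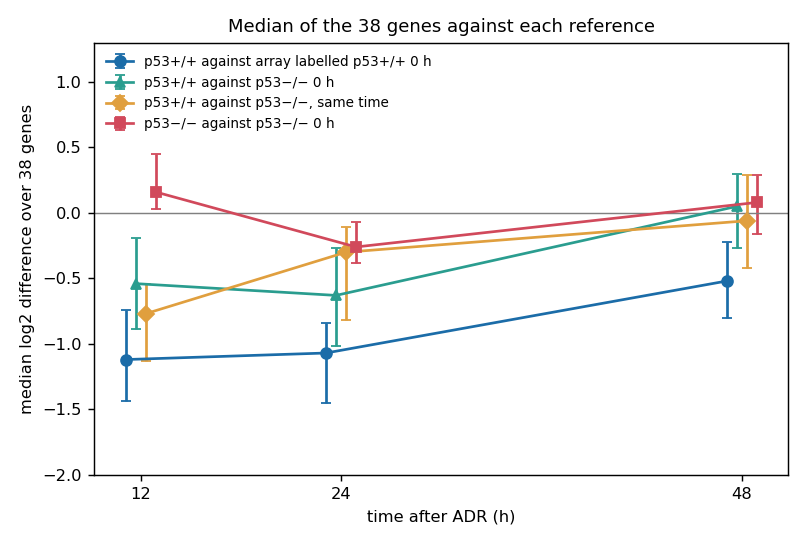
Median log2 difference over the 38 genes (vertical axis) at 12, 24 and 48 h after ADR (horizontal axis) against 4 references, with bars for the interquartile range; points are shifted sideways for legibility. The p53+/+ medians against the array labelled p53+/+ 0 h are -1.12, -1.07 and -0.52, those against the other 2 references lie nearer to 0, and the p53−/− medians lie between -0.26 and 0.16.

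Much of the p53+/+ difference depended on which 0 h array was the reference. The 38 genes read higher on the array labelled p53+/+ 0 h than on the p53−/− 0 h array, with a median difference of 0.53 and 36 of 38 above 0. UTP15, NOLC1 and PNO1 were at least 2-fold higher there, 3 genes against 4.25% of all genes. Measured from the p53−/− 0 h array, the medians in p53+/+ cells were -0.54, -0.63 and 0.05. At 12 h 7 genes were lower by 2-fold or more (MYC, NOP14, GAR1, DKC1, BOP1, RRS1 and UTP18), against 11.0% of all genes. At 24 h there were 11 such genes, against 13.7%, and at 48 h 2 genes, FBL and POLR1E, against 12.1%.

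Setting treated p53+/+ cells beside p53−/− cells of the same time needs no 0 h array. The median difference over the 38 genes was -0.77 at 12 h, with 33 of 38 below 0. It was -0.30 at 24 h, with 31 below 0, and -0.06 at 48 h, with 22 below 0. At 12 h 10 genes were at least 2-fold lower in p53+/+ cells (NOP14, NOP56, GAR1, DKC1, BOP1, RRP9, RRS1, UTP18, UTP20 and NOLC1), against 9.7% of all genes. At 24 h they were 6, NCL, FBL, NOP14, NOP56, BOP1 and NOLC1, or 15.8% of the 38, against 14.0% of all genes and 9.72% of those above background on all arrays. At 48 h POLR1E alone was past this size, where 15.5% of all genes were, and no gene of the 38 was past it at all 3 times, against 5.92%. For 11 genes all 3 treated p53+/+ arrays lay below all 3 treated p53−/− arrays (NCL, NOP56, GAR1, DKC1, PES1, UTP6, UTP18, POLR1E, UBTF, RRN3 and NOLC1), against 19.9% of all genes. UTP3 was the 1 gene with the opposite order, which 24.6% of all genes had.

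**Figure D2:**
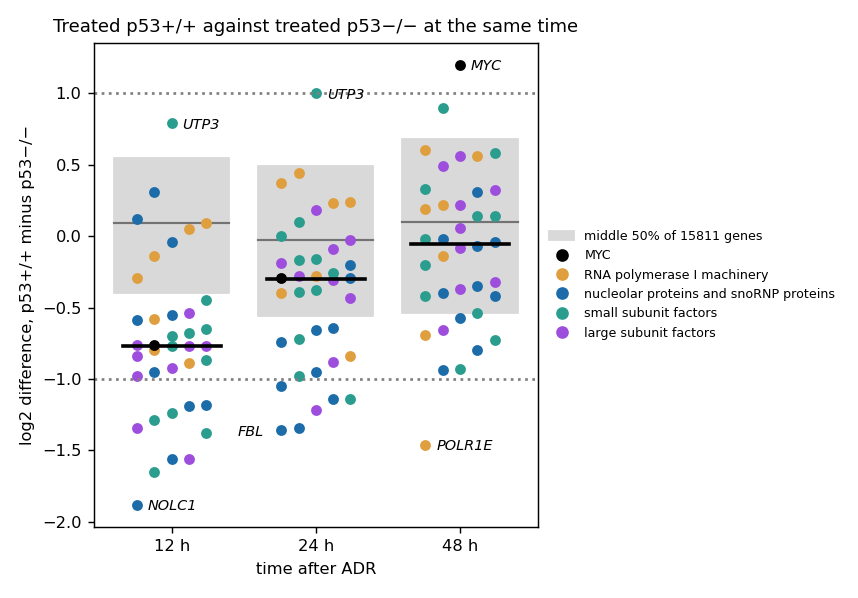
Log2 difference of treated p53+/+ minus treated p53−/− cells (vertical axis) for each of the 38 genes at 12, 24 and 48 h (horizontal axis), 1 point per gene coloured by role; black bars are the medians of the 38, grey boxes the interquartile range of 15811 genes with their median as a line, dotted lines the 2-fold size. The cloud moves from a median of -0.77 at 12 h to -0.06 at 48 h, with NOLC1 and POLR1E as the lowest genes at those times.

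In a limma fit in which the 3 treated times of a genotype stood in for replicates, p-values set a difference against the movement over time, and Benjamini-Hochberg adjustment ran over 28947 probes. The genotype difference among treated arrays passed an adjusted p of 0.05 as lower in p53+/+ cells for 3 of the 38 genes, UTP18, POLR1E and NOLC1, against 7.4% of all probes. UTP3 was the 1 gene higher in p53+/+ cells, against 10.6%. Without the 24 h arrays, and likewise without the 12 h arrays, none of these 4 passed. Without the 48 h arrays, NOLC1 and NOP14 passed. With time point as a block, NOLC1, POLR1E and UTP3 passed and UTP18 did not (adjusted p = 0.0525 by limma). The interaction of genotype and treatment passed for none of the 38, in the lower or the higher direction, against 0.746% and 0.94% of all probes. The lowest adjusted p of the interaction by limma was 0.146, for NOLC1. At an unadjusted p of 0.05 it held 10 of the 38, all lower in p53+/+ cells, against 17.1% of all probes.

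A second pattern rested on treated p53+/+ arrays alone: the genes were higher again at 48 h. From 12 to 48 h the median change in p53+/+ cells was 0.59, with 32 of 38 above 0, while in p53−/− cells it was -0.07, with 17 above 0. MYC, NOP14, BOP1, RRS1, UTP15 and NOLC1 rose 2-fold or more over this interval in p53+/+ cells, 6 genes against 8.39% of all genes and 4.75% of those above background on all arrays. The step lay between 24 and 48 h, with a median of 0.63 and 36 of 38 above 0, and the median from 12 to 24 h was -0.01. Over all genes the median from 24 to 48 h in p53+/+ cells was 0.15. In p53−/− cells the 38 genes were also higher at 48 h than at 24 h, with median changes from 0 h of 0.08 and -0.26. A late rise was thus not confined to p53+/+ cells. The 48 h p53+/+ array had the lowest 75th percentile of processed signal, 661.2 against 815.8 to 1198.8 on the other treated arrays. It also had 0 of 10 spike-in transcripts well above background, against 6 on each of the other arrays, and the part of these values in the rise was not tested.

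MYC was the gene that moved most between the treated p53+/+ arrays. Its level, from a probe in 10 spots, was 3.81 on the array labelled p53+/+ 0 h. Treated p53+/+ cells gave 2.71 at 12 h, 3.33 at 24 h and 4.71 at 48 h, and the p53−/− arrays 3.80, 3.47, 3.62 and 3.51 from 0 to 48 h. The p53+/+ array at 12 h was the lowest of the 8 and that at 48 h the highest, with the p53−/− arrays between them. From its 0 h array MYC in p53+/+ cells thus changed by -1.10, -0.48 and 0.90, and by -0.33, -0.18 and -0.30 in p53−/− cells. Since both 0 h arrays read the same to 0.01, these values do not depend on the choice of the 0 h array. From 12 to 48 h MYC rose 3.99-fold in p53+/+ cells, a log2 change of 2.00 that was 1.69 without scaling between arrays and 1.89 after quantile normalization. The difference between treated genotypes went from -0.76 at 12 h and -0.29 at 24 h to 1.2 at 48 h, where it was 0.34 without scaling. Averaged over the treated times it was 0.05 (standard error 0.49, adjusted p = 0.959 by limma), a mean of values with opposite signs.

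**Figure D3:**
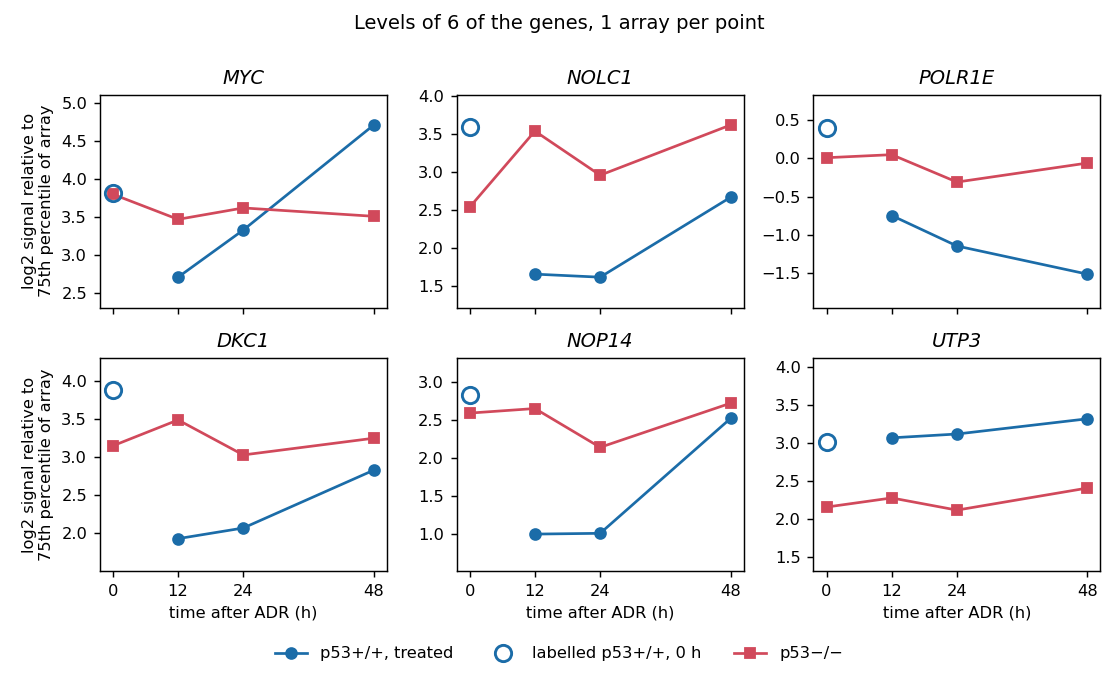
Levels of 6 of the genes (log2 signal relative to the 75th percentile of the array, vertical axis) against time after ADR (h, horizontal axis), 1 array per point, with p53+/+ in blue circles, p53−/− in red squares and the array labelled p53+/+ 0 h as an open circle. Each panel spans the same range; MYC climbs from 2.71 to 4.71 in treated p53+/+ cells, POLR1E falls from -0.75 to -1.52, and UTP3 stays above the p53−/− arrays at all times.

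Partners and antagonists of MYC were followed as a separate list. Of 16 such genes 15 were above background on at least 1 array, and their median change in p53+/+ cells was 0.19, 0.49 and 0.63 at 12, 24 and 48 h. In p53+/+ cells 3 rose and 1 fell at 12 h, 5 rose and 1 fell at 24 h, and 5 rose and none fell at 48 h. Over all genes 13.1%, 15.7% and 19.0% rose, and 10.8%, 14.3% and 12.3% fell. Measured from the p53−/− 0 h array, 3, 5 and 5 of the list were higher and 2 lower at each time, by 2-fold or more. From that array 2161, 2464 and 2970 of 15811 genes were as much higher, and 11.0%, 13.7% and 12.1% of all genes as much lower. FBXW7, the ubiquitin ligase subunit that marks MYC for destruction, changed by 2.25, 2.39 and 2.21 in p53+/+ cells and by -0.23, -0.60 and -0.97 in p53−/− cells. MXI1, which competes with MYC for MAX, changed by 0.82, 1.65 and 2.18 in p53+/+ cells and by -0.44, -0.14 and -0.52 in p53−/− cells. MYCL, a relative of MYC that was above background on 4 arrays, changed by 0.76, 1.98 and 2.22 in p53+/+ cells and by 1.43, 3.42 and 4.49 in p53−/− cells. MLXIPL was above background on 2 arrays only. Of 20 known targets of MYC outside the ribosome, 3, 10 and 4 fell in p53+/+ cells at the 3 times, with medians of -0.38, -1.0 and -0.56, against 10.8%, 14.3% and 12.3% of all genes, and none fell in p53−/− cells. With the p53−/− 0 h array as reference 2, 6 and 3 were lower by 2-fold or more, against 11.0%, 13.7% and 12.1% of all genes. The changes that differed most between genotypes were those of ODC1 (polyamine synthesis), PPAT and PAICS (purine synthesis) and CDK4. PAICS changed by -0.87, -2.34 and -1.47 in p53+/+ cells and by 0.56, 0.28 and 0.39 in p53−/− cells. ODC1 changed by -0.52, -0.94 and -1.54 in p53+/+ cells and by 1.5, 1.35 and 1.56 in p53−/− cells.

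Promoter sequence was set beside these values, since the E-box is the site that MYC and MAX bind. RefSeq promoter windows of the assembly GRCh38.p14, each from 250 bases before to 50 bases after a gene's start, were matched to 31 of the 38 genes, which have 38 windows. The E-box, the letters CACGTG and their own reverse complement, was in 13 of these 38 windows (34.2%), 1 for each of 13 genes. It was in 7.26% of all 35116 windows and in 8.75% of 17774 windows of genes on the array. For comparison, the letters CCGGAAGT, bound by ETS factors and searched on both strands, were in 18.4% of the windows of the 38 genes and 6.36% of those of genes on the array. The cell cycle homology letters TTTGAA, also on both strands, were in 10.5% and 11.4%. None of the 3 motifs contains another, and DDX21, GAR1 and NOP10 held both the E-box and the ETS letters. The 13 genes with an E-box were BYSL, DDX21, FBL, GAR1, GNL3, NOP10, NOP14, NOP2, PES1, PNO1, RRP9, UTP18 and UTP20.

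The E-boxes lay close to the start of the gene. Taking the nearest of each gene, 9 began after the start and 4 before it, and UTP18 and NOP10 held a second one. The sites of 8 genes are shown, 5 of them for genes whose 8 values are given below, FBL and NOP14 for their falls at 24 h and NOP10 as a gene that stayed within 2-fold. Each is 30 bases on the strand of the gene, 5′ to 3′, with the E-box in capitals.

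UTP20: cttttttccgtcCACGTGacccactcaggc (chr12:101280083-101280112, plus strand)
UTP18: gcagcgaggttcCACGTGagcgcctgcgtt (chr17:51260538-51260567, plus strand)
GAR1: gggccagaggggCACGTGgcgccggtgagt (chr4:109815781-109815810, plus strand)
RRP9: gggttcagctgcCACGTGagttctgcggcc (chr3:51941892-51941921, minus strand)
PNO1: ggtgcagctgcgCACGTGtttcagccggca (chr2:68157885-68157914, plus strand)
NOP14: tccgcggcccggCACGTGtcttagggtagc (chr4:2963374-2963403, minus strand)
FBL: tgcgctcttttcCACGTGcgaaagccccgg (chr19:39846356-39846385, minus strand)
NOP10: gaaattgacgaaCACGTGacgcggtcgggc (chr15:34343130-34343159, minus strand)

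For UTP20 and DDX21, whose E-box lies before the start, the 250 bases up to the start are given whole, so that the distance of the site to the end of the run can be seen. The E-box begins 10 bases before the start of UTP20 and 31 bases before that of DDX21.

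UTP20: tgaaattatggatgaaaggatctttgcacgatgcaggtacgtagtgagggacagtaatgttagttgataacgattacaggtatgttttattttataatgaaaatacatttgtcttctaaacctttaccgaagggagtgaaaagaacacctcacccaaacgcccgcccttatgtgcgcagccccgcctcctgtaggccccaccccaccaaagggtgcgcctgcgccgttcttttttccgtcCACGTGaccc (chr12:101279855-101280104, plus strand)
DDX21: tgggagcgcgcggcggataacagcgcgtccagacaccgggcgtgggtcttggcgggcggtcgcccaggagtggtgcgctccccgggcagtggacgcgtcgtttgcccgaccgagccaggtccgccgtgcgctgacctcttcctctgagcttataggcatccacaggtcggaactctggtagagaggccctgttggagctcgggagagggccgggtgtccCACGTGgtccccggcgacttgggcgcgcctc (chr10:68956397-68956646, plus strand)

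The 13 genes with an E-box had a median change of -1.28, -1.31 and -0.68 in p53+/+ cells at 12, 24 and 48 h, and 10, 12 and 3 of them fell. The 18 matched genes without one had -0.84, -0.98 and -0.28, and 6, 8 and 1 of them fell. Over all genes 10.8%, 14.3% and 12.3% fell. From the p53−/− 0 h array, GAR1, NOP14 and UTP18 of the E-box genes were lower by 2-fold or more at 12 h. At 24 h these were FBL, GAR1, GNL3, NOP14, UTP18 and UTP20, and at 48 h FBL. Of the matched genes without one, DKC1 was as low at 12 h, and NHP2, DKC1 and NOB1 at 24 h. The shares of all genes from that array were 11.0%, 13.7% and 12.1%. Against treated p53−/− cells the medians were -0.84, -0.66 and -0.32 with an E-box and -0.56, -0.23 and 0.20 without. The 2 sets overlapped widely, with changes from -1.83 to -0.15 and from -1.95 to 0.08 at 12 h. At 12 and 24 h MYC and the median of the E-box genes lay on the same side of 0 in p53+/+ cells. At 48 h they lay on opposite sides, MYC at 0.90 and the E-box genes at -0.68 from the array labelled p53+/+ 0 h. From the p53−/− 0 h array MYC was again at 0.90 at 48 h, but the E-box genes lay on both sides of 0. PNO1, BYSL, DDX21, NOP2 and RRP9 were above it, at 0.36, 0.30, 0.20, 0.18 and 0.04. The others were below it, from -0.07 for NOP14 to -1.11 for FBL. A match is a description of the letters in this window and no measure of binding.

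Among the 7 genes of the RNA polymerase I machinery, POLR1E stood apart from the subunits measured with it. POLR1E, which sits on the polymerase as a heterodimer with POLR1G, had a level of 0.40 on the array labelled p53+/+ 0 h, and treated p53+/+ cells gave -0.75 at 12 h, -1.15 at 24 h and -1.52 at 48 h. In p53−/− cells its levels were 0.01, 0.05, -0.31 and -0.06. The 3 treated p53+/+ arrays lay below all others, lowest at 48 h, when most of the 38 genes were higher again. The genotype difference among treated arrays was -1.04 (standard error 0.25, adjusted p = 0.0338 by limma). Other subunits of the polymerase differed from this. POLR1A changed by -0.06, -0.32 and 0.25 in p53+/+ cells, POLR1B by -0.72, -0.54 and 0.00, and POLR1C, which RNA polymerase III shares, by -0.63, -0.29 and 0.30, and none of them fell at any time. A second POLR1C probe changed by -0.79, -0.51 and -0.53, with the opposite sign at 48 h. POLR1A differed by 0.14, -0.12 and 0.45 and POLR1B by -0.05, 0.12 and 0.66 from the p53−/− 0 h array.

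The initiation factors of RNA polymerase I did not move alike. UBTF, which binds the ribosomal DNA promoter, changed by -1.21, -0.97 and -0.76 in p53+/+ cells and by 0.16, -0.21 and -0.15 in p53−/− cells. RRN3, which bridges the polymerase to the promoter complex, changed by -0.85, -0.77 and -0.43 in p53+/+ cells and by 0.46, 0.36 and 0.99 in p53−/− cells. Its other probes were above background on 6 and 2 arrays only. In p53+/+ cells they changed by -0.81, -0.89 and 0.60 and by -0.39, -1.54 and -0.45. In p53−/− cells they changed by -0.13, 0.27 and 1.10 and by 0.39, -0.28 and 0.75. RRN3 differed by -0.12, -0.05 and 0.30 and UBTF by -0.74, -0.49 and -0.29 from the p53−/− 0 h array. TAF1D, a subunit of the selectivity factor SL1, was within 0.51 of its 0 h level on every treated array. Of 21 further genes of RNA polymerases I and III, 7, 6 and 4 fell in p53+/+ cells at the 3 times and none rose, with medians of -0.46, -0.58 and -0.53, against falls of 10.8%, 14.3% and 12.3% of all genes. In this list 1, 1 and 0 were lower by 2-fold or more from the p53−/− 0 h array, against 11.0%, 13.7% and 12.1% of all genes. The changes that differed most between genotypes were those of POLR1G, the partner of POLR1E, of the polymerase III subunit POLR3K, of the termination factor TTF1 and of TAF1A. POLR1G changed by -2.36, -1.80 and -1.19 in p53+/+ cells and by 0.78, 0.71 and 0.86 in p53−/− cells. POLR3K changed by -1.21, -1.63 and -1.44 in p53+/+ cells and by 0.86, 0.59 and 0.52 in p53−/− cells.

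Of the 10 nucleolar and snoRNP genes, 4, 6 and 2 fell in p53+/+ cells at 12, 24 and 48 h, with medians of -0.87, -1.52 and -0.76, against falls of 10.8%, 14.3% and 12.3% of all genes. The counts were 2, 4 and 1 from the p53−/− 0 h array, against 11.0%, 13.7% and 12.1% of all genes. NOLC1, a nucleolar phosphoprotein that escorts snoRNPs, showed the largest difference between genotypes in the change of all 38 genes, -2.44 on average. Its levels were 3.59 on the array labelled p53+/+ 0 h, then 1.66, 1.62 and 2.67 in treated p53+/+ cells, against 2.54, 3.54, 2.96 and 3.62 in p53−/− cells. The array labelled p53+/+ 0 h was thus as high as treated p53−/− cells, and part of the fall rests on it: from the p53−/− 0 h array NOLC1 changed by -0.88, -0.92 and 0.13. Among treated arrays it was 2.62-fold lower in p53+/+ cells (log2 -1.39, standard error 0.35, adjusted p = 0.0392 by limma).

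The genes of the 2 snoRNP classes did not move as blocks. DKC1 (dyskerin), the enzyme of the pseudouridine class, had levels of 3.88 on the array labelled p53+/+ 0 h, then 1.93, 2.07 and 2.83 in treated p53+/+ cells, against 3.15, 3.49, 3.03 and 3.25 in p53−/− cells. GAR1, which works with it, had 4.34, 2.75, 2.69 and 3.36 in the same order of p53+/+ arrays and 3.78, 3.94, 3.44 and 3.93 in p53−/− cells. For both genes each treated p53+/+ array lay below each p53−/− array. NHP2 and NOP10, the remaining proteins of that particle, changed by 0.08 and -0.15 at 12 h and by -0.99 and -0.83 at 24 h in p53+/+ cells, without reaching 2-fold.

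In the methylation class, FBL (fibrillarin), the methyltransferase, changed by -0.57, -1.69 and -1.39 in p53+/+ cells and by 0.30, -0.05 and -0.31 in p53−/− cells. FBL was also 0.80 lower than in treated p53−/− cells at 48 h, when the median of the 38 genes was -0.06. NOP56, a core protein of this class, had levels of 5.32 on the array labelled p53+/+ 0 h, then 3.87, 3.64 and 4.51 in treated p53+/+ cells, against 4.42, 5.06, 4.77 and 4.92 in p53−/− cells. Its treated p53+/+ arrays lay below the treated p53−/− arrays, while the 0 h array labelled p53+/+ was the highest of all. Its 2 other probes changed by -1.61 and -1.49 at 12 h and by -0.72 and -0.69 at 48 h. NOP58, its partner, changed by -0.85, -0.88 and -0.26.

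The abundant nucleolar chaperones differed from each other. NCL (nucleolin) changed by -0.89, -1.39 and -0.71 in p53+/+ cells and by 0.62, 0.22 and 0.20 in p53−/− cells, with all treated p53+/+ arrays below the p53−/− arrays. NPM1 (nucleophosmin) changed by 0.03, -0.72 and -0.22 in p53+/+ cells and by -0.03, -0.46 and -0.48 in p53−/− cells, so the genotypes overlapped. Its 2 other probes gave -1.15 and -1.11 at 24 h in p53+/+ cells, past the 2-fold size that the brightest probe missed. Of 9 further genes of snoRNP assembly, 3, 3 and 0 fell in p53+/+ cells, with medians of -0.41, -0.90 and -0.52, against 10.8%, 14.3% and 12.3% of all genes. From the p53−/− 0 h array 0, 1 and 0 were as low, against 11.0%, 13.7% and 12.1%. NAF1 and NUFIP1, which fell at 12 h, were above background on 5 and 6 arrays only.

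**Figure D4:**
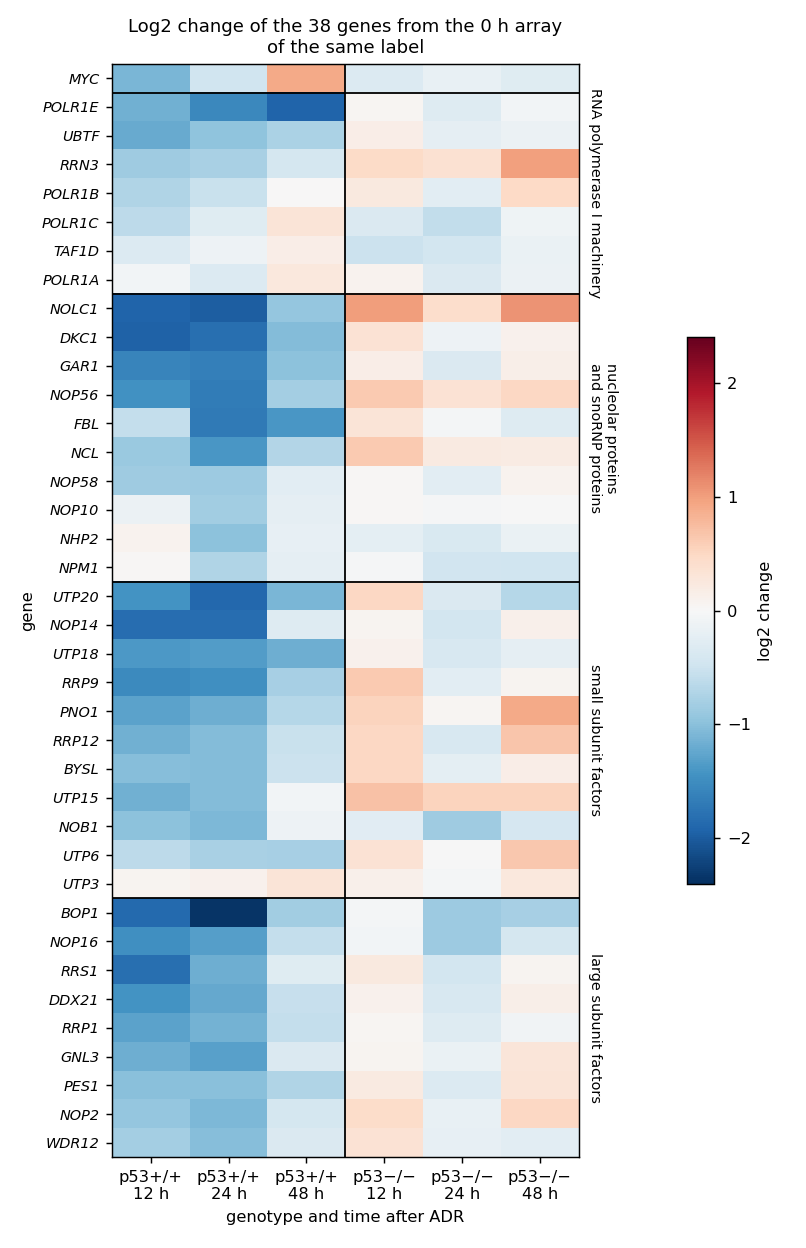
Log2 change of each of the 38 genes (rows, grouped by role and sorted by the mean p53+/+ change) from the 0 h array of the same label at 12, 24 and 48 h after ADR (columns) in p53+/+ and p53−/− cells, blue for lower and red for higher. The p53+/+ columns at 12 and 24 h are mostly blue and pale at 48 h, the p53−/− columns are pale, with exceptions such as NPM1, NHP2, POLR1A, TAF1D and UTP3 on the left.

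Of the 11 factors of the small subunit, 8, 9 and 2 fell in p53+/+ cells, with medians of -1.16, -1.08 and -0.53, against falls of 10.8%, 14.3% and 12.3% of all genes. They were 2, 4 and 0 from the p53−/− 0 h array, against 11.0%, 13.7% and 12.1% of all genes. UTP18 and UTP20, parts of the small subunit processome that forms on the growing precursor, fell at all 3 times. The levels of UTP18 were 1.93 on the array labelled p53+/+ 0 h, then 0.56, 0.59 and 0.75 in treated p53+/+ cells, against 1.70, 1.80, 1.31 and 1.48 in p53−/− cells. All treated p53+/+ arrays lay below all others, with a genotype difference of -0.90 (standard error 0.20, adjusted p = 0.0264 by limma, 0.0525 with time point as a block). UTP20 had 0.78, -0.66, -1.10 and -0.32 on the arrays labelled p53+/+ and 0.23, 0.72, -0.13 and -0.46 in p53−/− cells. Here the genotypes overlapped at 48 h, where UTP20 was also lower in p53−/− cells by 0.68 from 0 h.

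For several of these factors the array labelled p53+/+ 0 h was the highest of the 8 and set the size of the change. UTP15 had -0.01, -1.17, -1.05 and -0.07 on the arrays labelled p53+/+ and -1.20, -0.49, -0.66 and -0.65 in p53−/− cells. From the p53−/− 0 h array its p53+/+ levels at 12 and 24 h differed by 0.03 and 0.15, so no fall remained. PNO1, an RNA-binding factor of late assembly, had 0.63, -0.65, -0.54 and -0.06 on the arrays labelled p53+/+ and -0.42, 0.12, -0.38 and 0.48 in p53−/− cells. RRP9, which binds the U3 snoRNA, had 3.04, 1.52, 1.57 and 2.24 on the arrays labelled p53+/+ and 2.20, 2.81, 1.95 and 2.26 in p53−/− cells. From the p53−/− 0 h array PNO1 and RRP9 changed by -0.23 and -0.68 at 12 h.

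NOP14, a processome factor, fell 3.55-fold at 12 h and 3.52-fold at 24 h in p53+/+ cells and was within 1.24-fold of the array labelled p53+/+ 0 h at 48 h. Its second probe changed less, by -0.87, -1.12 and -0.21, and so did not reach 2-fold at 12 h. Against treated p53−/− cells NOP14 differed by -1.65, -1.14 and -0.20, and the second probe by -0.75, -0.70 and -0.36. RRP12, BYSL and NOB1, which act in late steps of the small subunit, changed by -1.15, -1.02 and -0.98 at 12 h and by -0.53, -0.51 and -0.13 at 48 h. UTP6 changed by -0.62, -0.78 and -0.80, without a return at 48 h.

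UTP3 was the exception among the small subunit factors. Its levels from 0 to 48 h were 3.01, 3.07, 3.12 and 3.32 under the p53+/+ label and 2.16, 2.28, 2.12 and 2.41 in p53−/− cells. All 4 arrays labelled p53+/+, that of 0 h included, lay above all 4 p53−/− arrays. ADR changed UTP3 by at most 0.30 in either genotype. The genotype difference among treated arrays was 0.90 (standard error 0.18, adjusted p = 0.02 by limma), or 1.86-fold. On the array labelled p53+/+ 0 h UTP3 was thus close to treated p53+/+ cells, while the fibroblast markers were close to p53−/− cells.

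Of 35 further genes of ribosomal RNA processing and small subunit assembly, 9, 16 and 4 fell in p53+/+ cells at the 3 times and none rose, with medians of -0.83, -0.94 and -0.31, against falls of 10.8%, 14.3% and 12.3% of all genes. None of the 35 was lower by 2-fold or more at any time from the p53−/− 0 h array. From it 11.0%, 13.7% and 12.1% of all genes were as low. In p53−/− cells none fell, and the medians were 0.30, -0.20 and 0.19. The changes of UTP4, WDR36, EMG1 and NOL11 differed most between genotypes. WDR36 changed by -1.68, -1.66 and -1.44 in p53+/+ cells and by 0.17, -0.23 and 0.10 in p53−/− cells. UTP4 changed by -1.32, -1.33 and -0.49 in p53+/+ cells and by 0.86, 0.32 and 0.53 in p53−/− cells.

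All 9 factors of the large subunit were lower on each treated p53+/+ array than on the array labelled p53+/+ 0 h. Of these, 7, 9 and 0 fell at 12, 24 and 48 h, with medians of -1.28, -1.17 and -0.56, against falls of 10.8%, 14.3% and 12.3% of all genes. The falls numbered 2, 2 and 0 from the p53−/− 0 h array, against 11.0%, 13.7% and 12.1% of all genes. PES1, BOP1 and WDR12 form the PeBoW complex, which matures the large subunit RNA. BOP1 showed the deepest fall of all 38 genes, 5.11-fold at 24 h. Its changes were -1.86, -2.35 and -0.84 in p53+/+ cells, while in p53−/− cells they were -0.04, -0.88 and -0.80. Against treated p53−/− cells BOP1 differed by -1.56, -1.22 and 0.22. PES1 changed by -1.0, -1.01 and -0.73 and WDR12 by -0.82, -1.03 and -0.34 in p53+/+ cells, so the 3 partners did not move by the same amount.

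RRS1, which brings the 5S RNA particle into the large subunit, fell 3.50-fold at 12 h in p53+/+ cells and differed from treated p53−/− cells by -1.34, -0.03 and 0.32. DDX21, an RNA helicase, changed by -1.43, -1.23 and -0.56 in p53+/+ cells. It differed from treated p53−/− cells by -0.76, -0.09 and 0.06. GNL3 (nucleostemin) changed by -1.18, -1.31 and -0.35, NOP16 by -1.47, -1.33 and -0.57, RRP1 by -1.28, -1.14 and -0.57, and NOP2, an RNA methyltransferase, by -0.93, -1.07 and -0.43. For NOP16 the treated genotypes crossed, with differences of -0.77, 0.18 and 0.49, since it was also lower in p53−/− cells by 0.88 at 24 h.

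Of 40 further genes of large subunit assembly, 14, 18 and 6 fell in p53+/+ cells and none rose, with medians of -0.74, -0.93 and -0.38, against falls of 10.8%, 14.3% and 12.3% of all genes. Set against the p53−/− 0 h array, the falls numbered 3, 4 and 2, where 11.0%, 13.7% and 12.1% of all genes fell. In p53−/− cells 0, 1 and 1 fell, with medians of 0.28, -0.04 and 0.28. The changes of PAK1IP1, BRIX1, MRTO4 and DDX55 differed most between genotypes. PAK1IP1, a nucleolar protein, changed by -2.29, -2.43 and -1.79 in p53+/+ cells and by 0.19, -0.29 and 0.26 in p53−/− cells. Against treated p53−/− cells it was lower by 2-fold or more at all 3 times, with -1.77, -1.44 and -1.35. BRIX1 changed by -1.33, -1.35 and -0.93 in p53+/+ cells and by 0.82, 0.71 and 1.12 in p53−/− cells.

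The course of the 38 genes differed from those of p53 targets and of proliferation genes on the same arrays. All 9 genes of a list of p53 targets, CDKN1A and MDM2 included, rose at each time in p53+/+ cells. Their medians were 3.68, 3.76 and 3.84, where 13.1%, 15.7% and 19.0% of all genes rose. From the p53−/− 0 h array all 9 were higher by 2-fold or more at each time, with medians of 4.47, 5.04 and 4.42. From that array 2161, 2464 and 2970 of 15811 genes were as much higher. Fewer of the 9 rose in p53−/− cells, 1, 2 and 2, with medians of -0.19, 0.42 and 0.47. There 4.82%, 9.65% and 14.9% of all genes rose. CDKN1A still rose at each time without p53, by 2.01, 2.33 and 2.49. BTG2 did so at 24 and 48 h, by 1.17 and 1.16, while MDM2 changed by -0.71, 0.00 and -0.24. Of 10 proliferation genes 7, 7 and 9 fell in p53+/+ cells, with medians of -1.53, -1.63 and -4.84, against falls of 10.8%, 14.3% and 12.3% of all genes. From the p53−/− 0 h array 9 were lower by 2-fold or more at each time, against 11.0%, 13.7% and 12.1%. In p53−/− cells 3, 3 and 1 of the 10 fell, with medians of -0.73, -0.26 and -0.05, where 888, 845 and 1187 of 15811 genes fell. The 38 genes had their smallest change at 48 h and the proliferation genes their largest. Fewer growing cells and less RNA per cell cannot be told apart in such bulk samples.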

How the data were processed

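The deposited values were scanner output of Agilent Feature Extraction 10.7.3.1 for 8 single-colour arrays, with headers naming the build hg19. The processed signal, a linear intensity after the scanner's own background correction, is what the authors deposited. Normalization between arrays is not given in the sources used here. The deposited series table repeats these intensity values (503808 of 503808 equal within 0.01%) and so gave no alternative. Labels give 0.5 μg/ml of ADR, while the study's methods name a higher dose.

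Of 62976 spots per array, 58717 were not controls. Spots with outlier or uneven flags were left out (233 to 370 per array), which lost 14 of 42405 probes. Log2 signals minus the array's 75th percentile (661.2 to 1198.8 intensity units) were averaged over a probe's spots. Probes were named by transcript accession through RefSeq genes of GRCh38.p14 (27227 probes, 20296 genes), and a gene took its probe with the highest mean. No spot was saturated. The number of arrays limits the precision. limma 3.58.1 (R 4.3.3; lmFit, eBayes, 4 residual degrees of freedom) was fitted to the 28947 probes above background on 1 array or more, with treated times in place of replicates, and was tested on simulated data. Other steps used Python 3.11.15. Alternatives were median, quantile, no and spike-in scaling, normexp (offset 50) on median spot signals, the mean being absent from these files, all probes of a gene, the p53−/− 0 h baseline, other sizes, filters, and each time left out.

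The 38 genes and all lists were chosen with earlier results of these data known. Values on all 8 arrays are given for MYC, genes past 2-fold the same way at all 3 times, the 8 with the largest mean difference between genotypes in the change, and genes passing limma. Further lists were small and large subunit assembly, snoRNP assembly, RNA polymerases I and III, the MYC network, MYC targets, p53 targets, proliferation and cell markers, with up to 4 genes each by that difference. RIOK1 was not matched. Some genes of these lists are not reported here. Genes without a promoter window were NOP58, NOLC1, RRP12, BOP1, POLR1E, RRS1 and MYC.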

Additional observations from a re-analysis of the deposited data

Results flagged for a closer look

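For 6 of the 38 genes every treated p53+/+ array lay below the array labelled p53+/+ 0 h while every treated p53−/− array lay above the p53−/− 0 h array. The mean p53+/+ change less the mean p53−/− change was -2.44 for NOLC1, -1.81 for NOP56, -1.54 for PNO1, -1.35 for UTP15, -1.34 for NCL and -1.28 for RRN3. At single times the difference was not tested, and in the limma fit over all times its adjusted p was 0.146 or higher for each of them. From the p53−/− 0 h array the mean change in p53+/+ cells was -0.55 for NOLC1, -0.41 for NOP56, -0.44 for NCL, 0.00 for PNO1, 0.43 for UTP15 and 0.04 for RRN3. The opposite directions of PNO1, UTP15 and RRN3 thus rest on the array labelled p53+/+ 0 h. NOLC1 and NOP56 at 48 h were above the p53−/− 0 h array, by 0.13 and 0.09. For these genes too, being lower on every treated p53+/+ array rests on the array labelled p53+/+ 0 h. NCL differed from the p53−/− 0 h array by -0.33, -0.83 and -0.16, lower at each time. The dimmer probes of RRN3 did not show opposite directions at every time. The probe above background on 6 arrays changed by 0.60 at 48 h in p53+/+ cells. The probe above background on 2 arrays changed by -0.28 at 24 h in p53−/− cells.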

How the results depend on the processing

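Without scaling the median mean change of the 38 genes was -1.34 in p53+/+ and 0.36 in p53−/− cells, with -1.84 for the difference between them and -1.04 between treated genotypes, against -0.93, -0.03, -1.04 and -0.45 with it. This setting moves the median of all genes by -0.62 to 0.45 in the changes and by -0.86 to -0.45 between treated genotypes, and relative to it the 38 genes stayed at -1.18, -1.03 and -0.68 in p53+/+ cells. Their falls there became 22 at 48 h and 20 at all times. Spike-in scaling gave 0.32 in p53−/− cells and could not scale the p53+/+ 48 h array. From the p53−/− 0 h array the p53+/+ median was -0.39 and the difference -0.45, falls were 7, 11, 2 and, at all times, 0, and the mean change turned from -1.04 to 0.00 for PNO1, -0.75 to 0.43 for UTP15, -0.68 to 0.04 for RRN3, -0.42 to 0.24 for POLR1B and -0.05 to 0.16 for POLR1A. Median scaling gave 8 falls at 48 h and 7 at all times, the 1.5-fold size 15 and 14. Asking for 2 of 3 times gave 21 falls, leaving out 48 h 20, and either that rule or leaving out 24 h gave 1 gene, NOLC1, past the size in p53−/− cells, against 0. Genes 2-fold lower than in treated p53−/− cells, 10, 6 and 1, became 28, 14 and 16 without scaling and 26, 14 and 7 at 1.5-fold. They became 22 at 12 h with median scaling, and at 48 h 4 with quantile normalization and 2 with normexp. Shares of all genes under other scalings or at the 1.5-fold size were not computed for the falls or for these differences. By limma 3 genes were lower in p53+/+ cells, against 7.4% of all probes. There were 5 with median scaling (9.27% of probes) and 5 without the filter on dim probes (6.38%). Probes above background on all arrays gave 7 genes (10.3% of probes), quantile normalization 8 (9.13%) and no scaling 24 (27.7%). No gene was lower without 12 h (4.18% of probes) or without 24 h (0.294%), where fewer arrays enter the fit. UTP3 was not called in those settings, without 48 h or without scaling (0 genes higher), and the interaction held 6 genes without scaling. With time point as a block among treated arrays, NOLC1, POLR1E and UTP3 were called and UTP18 was lost. The cause of the other moves was not tested.

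With 1 array per condition, error between cultures is unknown, and array position follows genotype. The labels carry no replicate number, so treated arrays pair by time point alone, as in that block. All 38 genes pass a filter on genes above background on all arrays, which lowers the shares over all genes, from 14.9% to 7.67% for rises in p53−/− cells at 48 h. The rise from 12 to 48 h, chosen after seeing the data, stayed between 0.29 and 0.60 in the 4 other settings tried.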
